A study of Mus musculus with 50 samples.

Results

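Of 50 single induced hemogenic endothelial cells (iHECs), 24 had the Sfpi1 transcript above a level of 1 TPM, and these Sfpi1-positive cells are described here against the 26 Sfpi1-negative cells at or below it. TPM is a transcript abundance scaled by length to a common total within each cell. The classes were chosen by the measured Sfpi1 level, so the Sfpi1 values are a description of the choice and not a result. The positive cells made up 48% of the total, with an exact Clopper-Pearson 95% interval of 33.7% to 62.6% that covers counting error over cells only.

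All cells belonged to 1 labelled group, iR-iHEC, derived from C57BL/6 embryonic stem cells with a doxycycline-inducible Runx1 cassette in the Rosa26 locus. Cells of both classes had therefore received the Runx1 cassette and doxycycline during culture, and cells without the cassette were not analysed here. They were sorted singly by the surface phenotype CD31+CD41lowCD45-c-kit+CD201high, their cDNA was amplified as a whole transcriptome, and each was sequenced as its own library. The labels named neither a culture nor a sorting day for any cell, so all cells counted as 1 sample and no significance test or standard error between the classes was possible. Titles carried a first number from 1 to 4 whose meaning was not given, and differences within each of these 4 sets of cells were used as the only check of spread. Positive and negative cells numbered 5 and 6 in the first set, 8 and 6 in the second, 5 and 8 in the third, and 6 and 6 in the fourth.

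Sfpi1 is the older symbol of Spi1, which encodes the ETS family transcription factor PU.1. PU.1 drives the formation of macrophages, granulocytes and B cells, and it acts in the earliest blood progenitors together with Runx1, which regulates the Spi1 locus. Its well-known target genes include receptors for myeloid growth factors, Fc receptors and their signalling adaptors, and subunits of the phagocyte oxidase. Hemogenic endothelium is the endothelial population from which blood cells arise, so transcripts of both lineages can be met in 1 cell.

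Sfpi1 lies on chr2:91082390-91115756 (plus strand, GRCm38, GENCODE M21), is protein-coding and overlaps no other annotated gene there. It was listed at 0 in 21 cells, above 0 but at most 1 TPM in 5 cells, above 1 and at most 10 TPM in 7 cells, and above 10 TPM in 17 cells. The positive cell closest to the level was cell 2-8 with 1.07 TPM, and the negative cell closest to it was cell 1-4 with 0.695 TPM. The 7 low positive cells reached only 3.74 TPM, whereas the 17 high ones had a median of 326 TPM and began at 10.7 TPM, followed by 42.2 TPM. Cell 4-6 had the highest level, 3843 TPM, and cell 4-2 came next with 1149 TPM. The plot of Sfpi1 over cells showed a long flat part and a steep part, with few cells between them. Of the genes next to Sfpi1, the difference between the classes (the adjusted difference defined in the next paragraph) was 0.24 for the zinc transporter gene Slc39a13, -0.28 for the proteasome subunit gene Psmc3 and -0.03 for Madd.

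**Figure D1:**
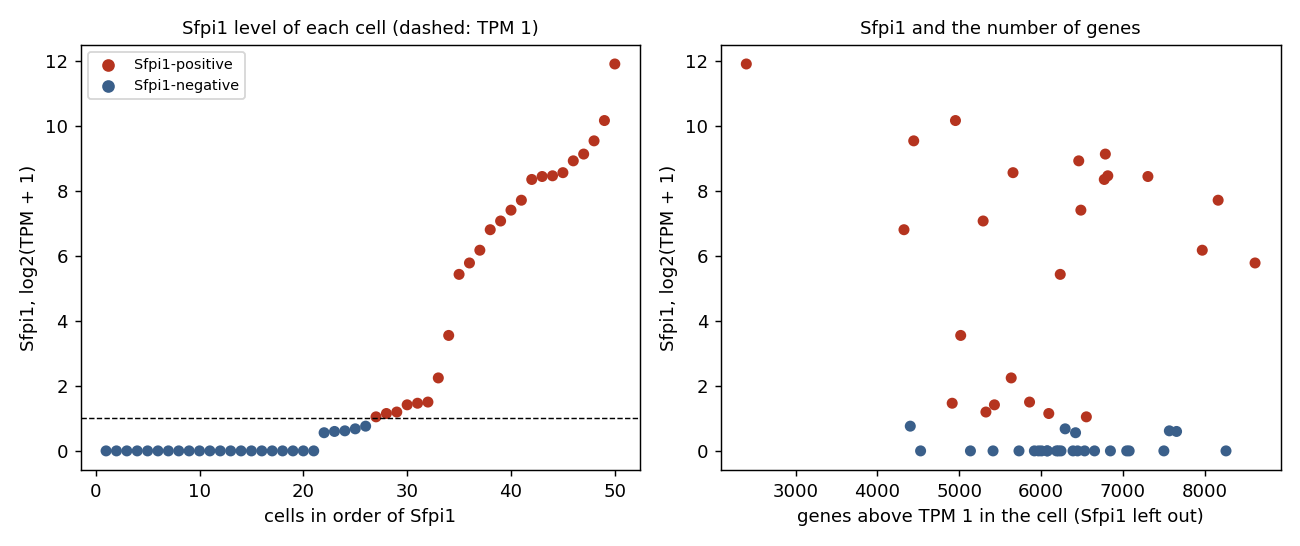
Left, Sfpi1 as log2(TPM + 1) in each of the 50 cells in rising order, with a dashed line at 1 TPM; right, the same level against the number of other genes above 1 TPM in that cell. Red points are the 24 positive cells and blue points the 26 negative cells, and cell 4-6 stands alone at the top left of the right-hand plot with 2399 genes.

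Because TPM values keep no read depth, each cell was described by its number of other genes above 1 TPM. It ranged from 2399 to 8614 with a median of 5976.5 in positive cells, and from 4402 to 8259 with a median of 6268.5 in negative cells. The ranges overlapped, and the mean was 5979 ± 1363 (SD over 24 cells) against 6330 ± 896 (SD over 26 cells). The positive minus negative difference of medians was -292 genes, but it was 271 genes when cells above 10 TPM of Sfpi1 were set against all others, so its sign depended on the level chosen. Over the 50 cells, Spearman's rho between Sfpi1 and this number was -0.11. Each difference below was therefore adjusted for it, by a least-squares fit of log2(TPM + 1) on the Sfpi1 class and the number of genes, and is called the adjusted difference, positive minus negative.

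Of 11879 genes in the table, 9103 were above 1 TPM in at least 10 cells and were compared. The median adjusted difference over these genes was -0.01, and 49.3% of the genes lay above 0. Before adjustment the median was -0.16, and unadjusted differences are to be read against that level. An adjusted difference of 2, which is 4-fold on the TPM + 1 scale, was used as a rule of size. It was reached by 22 genes in the higher direction (0.242%) and by 13 genes in the lower direction (0.143%). At a difference of 1 there were 442 genes higher (4.86%) and 403 genes lower (4.43%). Before adjustment, 4.66% of the genes were higher and 9.35% were lower in positive cells within each of the 4 title sets, and differences within title sets are given unadjusted throughout. Of the 35 genes past 2, 30 had the same sign in each set. The sets divide the same cells that gave these 35 genes, so the shared sign was partly built in and is no support. The counts of genes past 2 moved with the settings, and the genes higher and lower numbered 175 and 158 with a pseudocount of 0.1 in place of 1. Without the covariate the balance turned, to 13 higher and 29 lower. With 1 title set left out they ran from 33 to 51 and from 28 to 34.

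Of the gene lists compared, myeloid signalling genes had the highest median. Of 22 such genes in the table, 15 were compared. Of these, 13 had an adjusted difference above 0, beside 49.3% of all genes, and the median was 0.71 beside -0.01 over all genes. Plek, Tyrobp, Plcg2 and Ptpn6 were past 2 in the higher direction, beside 0.242% of all genes. No member was past 2 in the lower direction, beside 0.143% of all genes. Higher in each title set were 6 members, namely Plcg2, Ptpn6, Ptpn18, Plek, Tlr2 and Tlr4, beside 4.66% of all genes. A gene detected in few cells could enter the comparison through 1 class alone, so counts and medians of a list describe its compared members only.

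Plek (chr11:16971206-17052381, minus strand) encodes pleckstrin, a protein kinase C substrate of platelets and leukocytes. Its lowest, median and highest levels were 0, 3.69 and 461 TPM in positive cells and 0, 0 and 45.6 TPM in negative cells. It was above 1 TPM in 12 of 24 positive cells (50%, exact 95% interval 29.1% to 70.9%) and in 2 of 26 negative cells (7.69%, interval 0.946% to 25.1%). The intervals of single genes, here and below, cover counting error over the cells of 1 sample only. These genes were chosen with the same data, so their intervals are no test between the classes. Of the 14 cells with Plek, 11 were among the 17 cells above 10 TPM of Sfpi1, beside 1 of the 7 low positive cells, 1 of the 5 cells between 0 and 1 TPM and 1 of the 21 cells at 0. On the log2(TPM + 1) scale its mean level was 2.96 ± 2.97 (SD, n = 24) against 0.42 ± 1.25 (SD, n = 26), and the adjusted difference was 2.62. Within title sets the difference lay between 1.07 and 3.4.

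Plcg2 (chr8:117498291-117635142, plus strand) encodes phospholipase C gamma 2, which carries signals from Fc and antigen receptors. In positive cells it stood at 0.794, 117 and 679.7 TPM (lowest, median, highest) and in negative cells at 0, 37.6 and 228 TPM. It was above 1 TPM in 23 of 24 positive and 20 of 26 negative cells, so the classes overlapped widely and differed in level more than in the share of cells. The adjusted difference was 2.1, with 1.24 to 3.45 within title sets. Ptpn6, the gene of the phosphatase SHP-1 that restrains receptor signalling in blood cells, stood at 0, 59.1 and 400.1 TPM in positive and 0, 1.71 and 427 TPM in negative cells. It was above 1 TPM in 18 of 24 and 13 of 26 cells, and its adjusted difference of 2.1 varied from 0.10 to 4.29 over the title sets and was 1.41 without the first of them.

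Tyrobp, which encodes the adaptor DAP12 of activating myeloid receptors, had the largest difference of the group at 2.95. Its levels were 0, 36.1 and 1917 TPM in positive and 0, 0 and 1448 TPM in negative cells, and it was above 1 TPM in 17 of 24 and 10 of 26 cells. The difference was not shared by all title sets, since it ran from -0.03 to 4.93 over them. Fcer1g, the gene of the Fc receptor gamma chain, encodes an adaptor like DAP12. It was above 1 TPM in 17 of 24 positive and 24 of 26 negative cells with medians of 39 and 25.2 TPM, and its adjusted difference was -0.25 for the chosen level but 1.38 with the classes divided at 10 TPM of Sfpi1. Lyn, a SRC family kinase, was the lowest member at -0.46, with medians of 71.6 and 98.8 TPM, and it was lower in each title set.

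**Figure D2:**
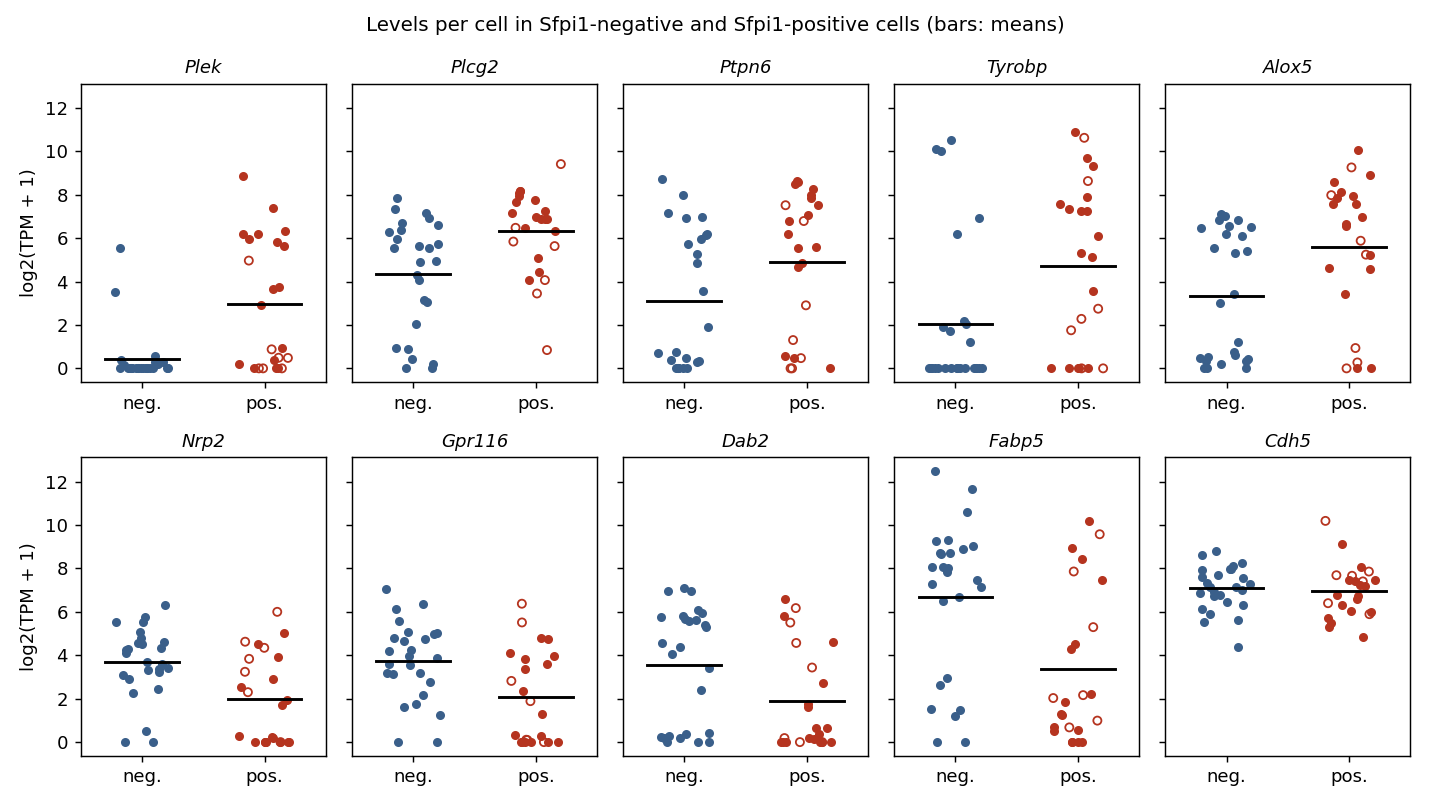
Level per cell, as log2(TPM + 1), of 10 genes in the 26 Sfpi1-negative (blue) and 24 Sfpi1-positive (red) cells; bars are means and open red circles are the 7 positive cells at or below 10 TPM of Sfpi1. Plek lies near 0 in all but 2 negative cells, Fabp5, Dab2, Gpr116 and Nrp2 are lower on average in positive cells with wide overlap, and the Cdh5 points of both classes lie at similar heights.

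Genes of the phagocyte oxidase, granules and lysosome gave a smaller median. The table held 18 members, of which 10 were compared. Of these, 8 were above 0, beside 49.3% of all genes, and the median adjusted difference was 0.46 beside -0.01. The unadjusted medians of the title sets ran from -0.05 to 0.91, so the sign was not shared by all of them. The members past 2, a size that 0.242% of all genes reached in the higher direction, were both genes of leukotriene synthesis. Alox5 (chr6:116410077-116461178, minus strand) encodes 5-lipoxygenase and stood at 0, 96.7 and 1066 TPM in positive and 0, 8.42 and 137 TPM in negative cells, with an adjusted difference of 2.53 (0.91 to 3.2 within title sets). Alox5ap, whose product presents the substrate to 5-lipoxygenase, stood at 1.1, 383 and 1606 TPM and 0, 81.0 and 2221 TPM in the same order. Every positive cell and 21 of 26 negative cells had Alox5ap above 1 TPM, and its adjusted difference of 2.1 ran from -0.11 to 3.85 over the title sets. The lysosomal protease gene Lgmn was the lowest member at -1.06, or -0.18 without the second title set. The oxidase gene Cybb and the granule genes Elane and S100a9 were listed at 0 in every cell.

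Of the myeloid receptors and lineage genes, only 7 of 28 members were above 1 TPM in enough cells to be compared. Of these 7, 3 were above 0, beside 49.3% of all genes, and the median adjusted difference was -0.12 beside -0.01. The unadjusted medians of the title sets ran from -0.45 to 0.42 and did not share a sign. The highest member was the Fc receptor gene Fcgr3 at 0.99, with levels of 0, 63.7 and 649 TPM in positive and 0, 38.5 and 1079.5 TPM in negative cells. The lowest was the mannose receptor gene Mrc1 at -1.0, above 1 TPM in 5 and 9 cells, or -0.37 without the fourth title set. Among receptors for myeloid growth factors, the shared beta chain gene Csf2rb was above 1 TPM in 24 of 24 positive and 25 of 26 negative cells with 0.54, and the GM-CSF receptor gene Csf2ra was above 1 TPM in 11 and 13 cells with -0.17, a sign that turned to 0.69 and 0.75 at Sfpi1 levels of 10 and 100 TPM. Csf1r was above 1 TPM in 2 positive cells and 1 negative cell and Csf3r in 3 positive cells and no negative cell. Listed at 0 in all cells were 13 members, including the integrin gene Itgam, the chemokine receptor genes Cx3cr1 and Ccr2, and Ly6c2.

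Over the 3 myeloid lists together, 68 genes were in the table and 32 were compared. Of these, 24 lay above 0, beside 49.3% of all genes, and the median adjusted difference was 0.52 beside -0.01. The median within the 4 title sets ran from 0.22 to 0.67. It became larger with a stricter Sfpi1 level, at 1.02 when cells above 10 TPM were set against the rest and 1.27 for cells above 100 TPM. A cell contained a median of 21 myeloid genes above 1 TPM in the positive class (range 12 to 36) and 19.5 in the negative class (range 11 to 24). The mean level of the compared myeloid genes had medians of 3.27, 3.23, 3.05 and 4.04 on the log2(TPM + 1) scale over the cells at 0, up to 1, up to 10 and above 10 TPM of Sfpi1. These levels were not adjusted for the number of genes above 1 TPM, whose medians in the same order were 6212, 6421, 5635 and 6460, and the levels of single cells overlapped between the classes, at 2.09 to 6.72 in positive and 1.86 to 4.64 in negative cells.

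Macrophage markers describe another cell type that a sort can hold, although the gate left out CD45+ cells. Of the 17 markers in the table, 10 were listed at 0 in all 50 cells, among them Ptprc (CD45), Emr1 (F4/80), Fcgr1, Mertk and the C1q genes. Only 3 were compared, with 1 above 0, beside 49.3% of all genes, and a median adjusted difference of -0.58 beside -0.01. They ran from Mrc1 at -1.0 to Lyz2 at 0.83. The unadjusted medians of the title sets ran from -0.61 to 0.30 and did not share a sign. The summed level of all markers was 0 to 1261 TPM with a median of 33.8 TPM in positive cells and 0 to 308 TPM with a median of 35 TPM in negative cells. Cell 4-7 gave the highest sum, of which Lyz2 made up 988 TPM, and it had 35 myeloid genes above 1 TPM. Cell 2-18 had 36, and the next cell had 27. Both also had Cdh5, at 51.8 and 146 TPM, and 34 and 47 of the 50 endothelial genes in the table. Without these 2 cells the median adjusted difference of the myeloid genes was 0.39 and that of Plek was 2.2. Their part in the result was not tested beyond this.

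**Figure D3:**
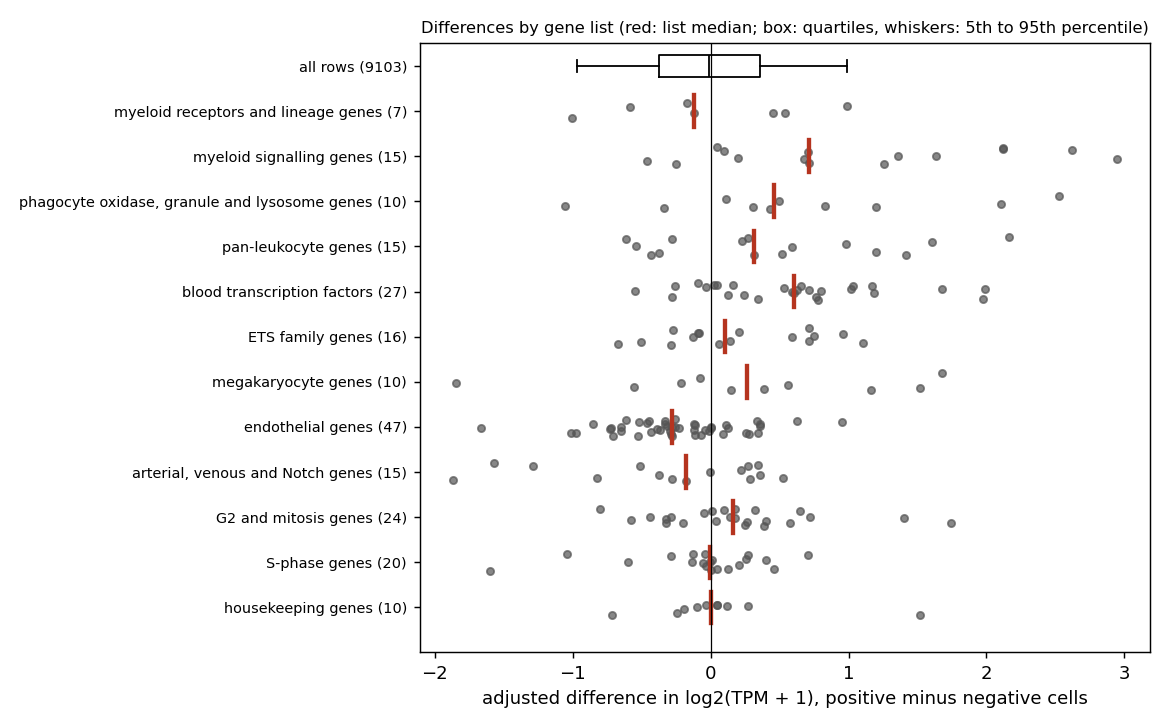
Adjusted difference in log2(TPM + 1), positive minus negative cells, of each compared gene (grey points) in 12 lists, with the number of genes in brackets and the list median in red; the box gives the quartiles and the whiskers the 5th to 95th percentile of all 9103 genes. Medians of the drawn lists run from 0.71 for myeloid signalling genes to -0.28 for endothelial genes, and most points of every list lie within the whiskers. Lists not drawn include the macrophage markers.

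The genes whose level over cells was most like that of Sfpi1 were ranked by Spearman's rho over the 50 cells, among 7064 genes above 1 TPM in 10 to 45 cells. The points share the libraries, and the ranks share many cells at 0. The Sfpi1 values that set the classes were used again here, so the ranking is another view of the same difference. Of the 10 genes named, 6 were also past 2 in the higher direction and 5 were among the 15 highest. Plek came first at 0.61, followed by the vitamin D receptor gene Vdr at 0.53, Plcg2 at 0.51, the heparan sulfate proteoglycan gene Gpc3 at 0.47 and the phospholipase gene Pla2g16 at 0.47. Nfkbie, an inhibitor of NF-kB, had 0.46, the RNA-binding protein gene Rbm24 had 0.45, the ciliary gene Ahi1 had 0.43, and the adhesion molecule gene Icam1 and the zinc finger factor gene Ikzf2 (Helios) had 0.41 each. Vdr was above 1 TPM in 12 of 24 positive and 3 of 26 negative cells, with a highest level of 91.5 and 26.2 TPM. Of its 12 positive cells, 10 were above 10 TPM of Sfpi1. Nfkbie was above 1 TPM in 11 positive and 4 negative cells, and its adjusted difference was 2.03. Pla2g16 was above 1 TPM in every one of the 17 cells above 10 TPM of Sfpi1 and in 13 of the 21 cells at 0.

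The largest difference in the higher direction was that of Gpc3 (chrX:52272426-52613950, minus strand). Gpc3 stood at 0, 30.7 and 191 TPM in positive and 0, 0 and 64.8 TPM in negative cells, and it was above 1 TPM in 15 of 24 (62.5%, interval 40.6% to 81.2%) and 4 of 26 cells (15.4%, interval 4.36% to 34.9%). Its adjusted difference was 3.08, and it lay between 1.63 and 3.61 within title sets, where the shared sign was a condition for naming it and no support. Msrb2, a mitochondrial methionine sulfoxide reductase, followed at 2.77 with medians of 42.7 and 0 TPM. The serine synthesis gene Phgdh had 2.61 with medians of 75.2 and 0.813 TPM, and the iron carrier gene Trf (transferrin) had 2.56 with medians of 261 and 16.1 TPM.

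Nfkb2, which encodes the p100 precursor of the transcription factor NF-kB, stood at 0, 27.2 and 203 TPM in positive and 0, 0.837 and 110.3 TPM in negative cells, with an adjusted difference of 2.37 and 1.73 to 3.07 within title sets. Icam1, which binds leukocyte integrins, stood at 0, 147 and 959.8 TPM and 0, 44.4 and 1110.4 TPM in the same order, with an adjusted difference of 2.45 and 0.12 to 4.56 within title sets. The levels of both genes overlapped between the classes. The remaining genes among the 15 highest, which had to share their sign over the title sets and so leave out Tyrobp, Coro1a, Asns and Alox5ap, were Ddt at 2.42, 1600020E01Rik at 2.27, Rbm24 at 2.08, the oxysterol-binding protein gene Osbpl2 at 2.07 and the lysosomal ATPase gene Atp13a2 at 2.05. At an Sfpi1 level of 100 TPM the differences of Ddt and Osbpl2 were 0.99 and 1.0.

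Among genes lower in positive cells, Fabp5 (chr3:10012548-10016607, plus strand), a fatty acid-binding protein gene, had the largest difference of the 9103 compared genes in either direction. It stood at 0, 2.85 and 1153 TPM in positive and 0, 241 and 5761 TPM in negative cells, and it was above 1 TPM in 15 of 24 (62.5%, interval 40.6% to 81.2%) and 24 of 26 cells (92.3%, interval 74.9% to 99.1%). The adjusted difference was -3.21, with -5.18 to -2.58 within title sets. Pparg, a nuclear receptor that binds fatty acids and acts on lipid genes, was also lower at -2.09, above 1 TPM in 7 of 24 positive and 17 of 26 negative cells, and -0.68 at an Sfpi1 level of 100 TPM. Dlst, a subunit of the 2-oxoglutarate dehydrogenase complex, had -2.26 with medians of 2.00 and 71.4 TPM, although at an Sfpi1 level of 100 TPM its difference was only -0.29. Nagk, a kinase of N-acetylglucosamine, had -2.22, and Ugp2, which makes UDP-glucose, had -2.05. Gmppb, which makes GDP-mannose, had -1.94, the carbonic anhydrase gene Car13 had -2.30 and the inositol phosphatase gene Inpp1 had -2.17. At an Sfpi1 level of 100 TPM Ugp2 had -1.12 and Inpp1 had -1.17, and at 10 TPM Nagk had -1.34.

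The other genes among the 15 lowest, chosen under the same condition on sign, were overlapping in level between the classes as well. F2rl3, which encodes the thrombin receptor PAR4, stood at 0, 0.354 and 118 TPM in positive and 0, 31.3 and 252 TPM in negative cells, with an adjusted difference of -2.04, which was -0.66 at an Sfpi1 level of 100 TPM and -1.25 without the fourth title set. Zbtb46, a zinc finger factor of endothelial cells and classical dendritic cells, was above 1 TPM in 7 of 24 and 18 of 26 cells and had -2.02. Nostrin, whose product binds endothelial nitric oxide synthase, was above 1 TPM in 3 and 10 cells and had -1.98, or -1.31 with cells divided at 0 TPM of Sfpi1. Fbxo36 at -2.35, the nuclear envelope gene Emd at -2.33 and the GTPase gene Irgm1 at -2.01 (-0.93 at an Sfpi1 level of 100 TPM) completed the group together with Dab2.

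Endothelial identity was present in both classes. Cdh5 (VE-cadherin) was above 1 TPM in every cell, with 27.3, 126 and 1168 TPM in positive and 19.8, 140.3 and 445 TPM in negative cells, and its adjusted difference was -0.23. Kdr, the VEGF receptor 2 gene, was likewise above 1 TPM in every cell, with medians of 108 and 111 TPM. Of the 50 endothelial genes in the table, 16 were above 1 TPM in all cells. A positive cell had a median of 42 endothelial genes (range 27 to 48) and a negative cell 44 (range 32 to 47). All 14 cells with Plek, counting both classes, had Cdh5, Pecam1 and Kdr above 1 TPM, as did every other cell. They had at least 27 endothelial genes, which is the lowest number of any cell. Neither value is therefore particular to cells with Plek.

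Of 47 compared endothelial genes 12 had an adjusted difference above 0, beside 49.3% of all genes, and the median was -0.28 beside -0.01. Within the title sets the unadjusted median ran from -0.62 to -0.17, so it was below 0 in each. The unadjusted median of all genes over all cells was itself -0.16, so the highest of these was at the level of all genes. Without cell 4-6 the adjusted median was -0.17, and without the second title set it was -0.09, close to all genes. No member was past 2, and 2 of the 47 members were past 1 in the lower direction, beside 4.43% of all genes. Gpr116 (now Adgrf5, chr17:43360451-43459557, plus strand), an adhesion receptor of endothelium, was the lowest at -1.67. It stood at 0, 2.07 and 82.0 TPM in positive and 0, 14.1 and 132 TPM in negative cells, and it was above 1 TPM in 13 of 24 and 24 of 26 cells. Lower in each title set were 6 genes, namely Esam, Clec14a, Ramp2, Gpr116, Icam2 and Ets1, with adjusted differences of -0.33, -0.97, -0.72, -1.67, -0.65 and -0.28. The share of genes lower in each set among all compared genes was 9.35%. Podxl was the highest member at 0.95, or 0.27 without the fourth title set.

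**Figure D4:**
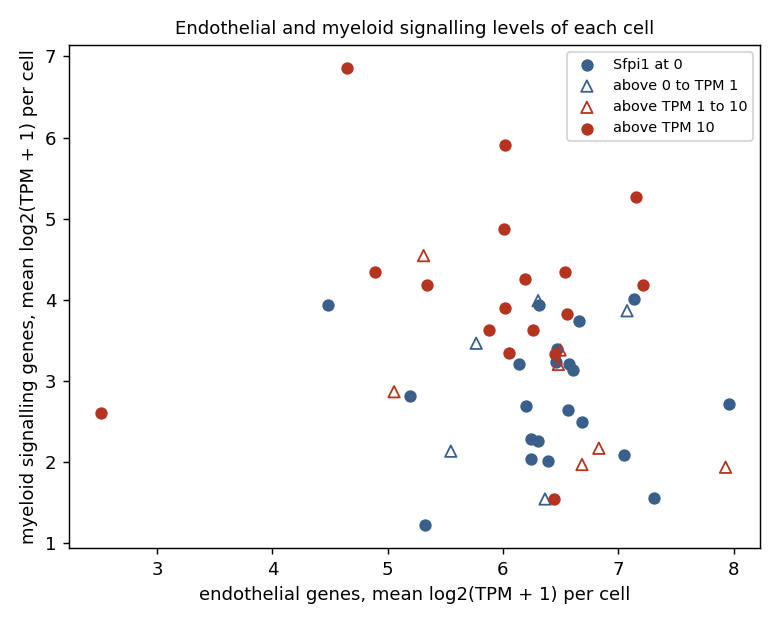
Mean log2(TPM + 1) of myeloid signalling genes against that of endothelial genes in each cell, with filled blue circles for Sfpi1 at 0, open blue triangles for up to 1 TPM, open red triangles for up to 10 TPM and filled red circles for above 10 TPM. The filled red circle with the highest myeloid signalling level, 6.86, is cell 4-7 with an endothelial level of 4.64, and cell 4-6 lies alone at the far left.

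Of 15 arterial, venous and Notch genes compared, 6 were above 0, beside 49.3% of all genes, and the median was -0.18, but the median was 0.12 without the third title set, so its sign was not stable. The members lower in each title set were the venous genes Ephb4 (-0.82), Nrp2 (-1.57) and Nr2f2 (-0.51) and the clathrin adaptor gene Dab2 (-1.87), 4 of 15 beside 9.35% of all genes. Nrp2, a co-receptor for VEGF and semaphorins, stood at 0, 2.58 and 63.1 TPM in positive and 0, 14.0 and 79.0 TPM in negative cells, and it was above 1 TPM in 13 of 24 (54.2%, interval 32.8% to 74.4%) and 23 of 26 cells (88.5%, interval 69.8% to 97.6%). The positive cells without Nrp2 were mostly those with much Sfpi1, since 7 of the 17 cells above 10 TPM of Sfpi1 had Nrp2 above 1 TPM beside 6 of the 7 low positive cells and 19 of the 21 cells at 0. Dab2 (chr15:6299788-6440712, plus strand) stood at 0, 0.437 and 95.4 TPM and 0, 21.3 and 137 TPM. The arterial gene Efnb2, a ligand of Ephb4, had medians of 14.9 and 13.4 TPM and an adjusted difference of -0.00, and the Notch target gene Hey1 was the highest member at 0.52, although it had -0.13 with cells divided at 0 TPM of Sfpi1 and -0.19 at 100 TPM.

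Among the sort markers, Itga2b had the largest difference. Every cell had both Pecam1 and Procr, the genes of CD31 and CD201, above 1 TPM, with adjusted differences of -0.33 and -0.23 (0.15 for Procr without the third title set), and Kit was above 1 TPM in 22 of 24 positive and 25 of 26 negative cells with 0.62. Ptprc (CD45) was listed at 0 in all cells. Itga2b, the integrin chain CD41, was above 1 TPM in 20 of 24 and 20 of 26 cells, and its levels were 0, 94.7 and 609 TPM and 0, 27.7 and 339.7 TPM. Its adjusted difference was 1.52, with -0.71 to 2.95 within title sets, so the sign was not shared by all of them. Runx1, for which transcripts of the native gene and of the inducible cassette cannot be told apart here, stood at 0.615, 184 and 742 TPM in positive and 0.163, 70.6 and 913 TPM in negative cells. Its adjusted difference was 1.98, with -1.64 to 4.1 within title sets, and 1.23 without the second of them. Of 43 cells with Runx1 above 1 TPM 22 were Sfpi1-positive, and of the 7 others 2 were.

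Of 27 compared transcription factors of blood cells, 22 had an adjusted difference above 0, beside 49.3% of all genes, and the median was 0.61, with 0.02 to 0.82 over the title sets. The median was 0.35 without the second title set and 0.43 without the covariate. No member was past 2. Mycn was the highest at 1.99, and it stood at 0.533, 102 and 569 TPM in positive and 0, 48.5 and 233 TPM in negative cells with 0.79 to 2.81 within title sets. Nfe2, a factor of the megakaryocyte and erythroid lineages, had 1.68, Klf4 had 1.17, Lmo2 had 1.03 and Mef2c had 0.76. Among other factors of early blood cells, Erg had 0.59, Fli1 had -0.09, Tal1 had -0.03 and Gata2 had 0.12, each of which changed sign under another setting, and Gfi1, a target of Runx1 that silences endothelial genes, had 0.05 and did so too. Lyl1 was the lowest at -0.55, and at an Sfpi1 level of 10 TPM its difference was 0.08. Of the partners of PU.1 in myeloid cells, Cebpb had 0.34 and Irf8 had 0.16, which were -0.44 and -0.80 without the fourth title set, while Cebpa was above 1 TPM in only 1 cell.

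Of 16 compared other genes of the ETS family, to which Spi1 belongs, 9 were above 0, beside 49.3% of all genes, with a median of 0.10, from Elk4 at -0.67 to Etv5 at 1.1, and the unadjusted medians of the title sets ran from -0.25 to 0.17. The relative Spic was listed at 0 in every cell. Pan-leukocyte genes had 10 of 15 above 0, beside the same 49.3%, and a median of 0.31, or 0.04 without the second title set, with -0.21 to 0.90 over the title sets. Coro1a, an actin regulator of leukocytes, was the member past 2, at 2.2, beside 0.242% of all genes. It was above 1 TPM in 13 of 24 positive and 8 of 26 negative cells, but its difference ran from -1.55 to 3.95 over the title sets. Rac2 and Fermt3, a GTPase and an integrin activator of blood cells, were higher in each set at 0.59 and 1.61, 2 of 15 beside 4.66% of all genes. Ptpn7 was the lowest member at -0.61.

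Lists of other lineages gave these values. Megakaryocyte genes had 6 of 10 above 0, beside 49.3% of all genes, and a median of 0.27, from Clec1b at -1.85 to Nfe2. That median was 0.00 without the covariate, and the unadjusted medians ran from -1.13 in the fourth title set to 1.04 in the third. Of the erythroid genes only Car2 (-0.98) and Tfrc (0.45) were above 1 TPM in enough cells to be compared. None of the mast cell, mesenchymal or pluripotency genes was above 1 TPM in 10 cells. Their summed levels reached at most 21.5 and 24 TPM for mast cell genes, 84.2 and 26.2 TPM for mesenchymal genes and 4.66 and 10.5 TPM for pluripotency genes in a positive and a negative cell. Housekeeping genes had a median of 0.01, with Tbp at 1.52 and Hprt at -0.72 as the extremes.

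Cell cycle genes differed between the title sets. G2 and mitosis genes had 16 of 24 above 0, beside 49.3% of all genes, with a median adjusted difference of 0.16. They ran from Tacc3 at -0.80 (0.21 with cells divided at 0 TPM of Sfpi1) to Ccnb1 at 1.74, and the medians of the title sets spanned -0.55 to 1.09. That median was -0.08 without the covariate and -0.19 without the second set. S-phase genes had 10 of 20 above 0, beside the same 49.3%, and a median of -0.00, from Slbp at -1.60 to Pola1 at 0.71. Their median was -0.29 without the covariate, and the unadjusted medians of the title sets differed in sign, from -1.1 in the fourth to 0.91 in the first. A median of 9 mitosis genes was above 1 TPM in cells of either class, with a range of 5 to 27 in both.

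**Figure D5:**
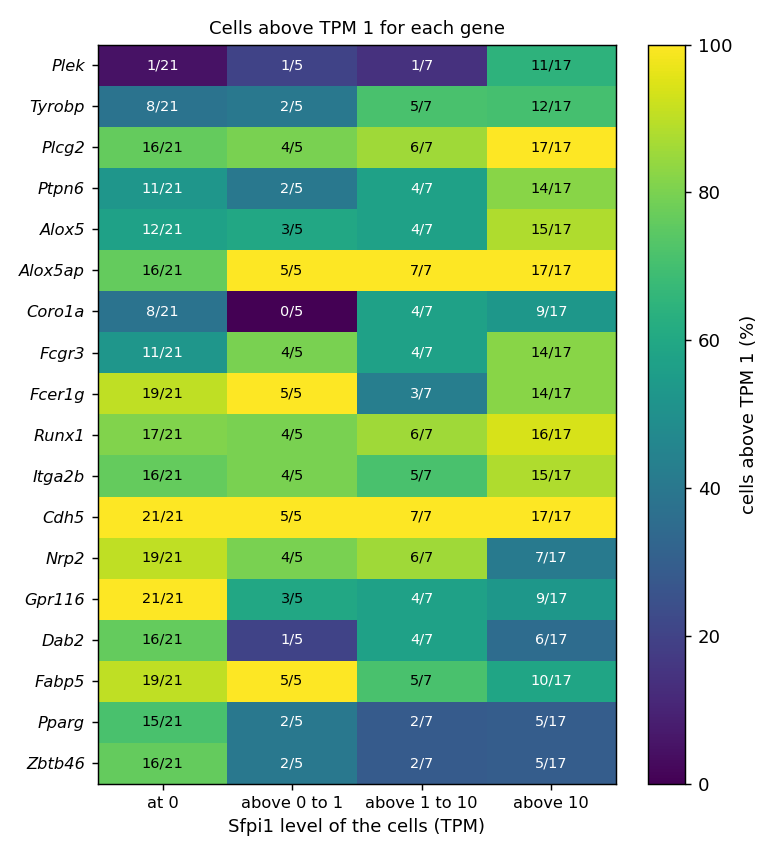
Share of cells above 1 TPM (colour, with cells of all cells in each box) for 18 genes in the 4 ranges of Sfpi1 level, which hold 21, 5, 7 and 17 cells. Plek goes from 1 of 21 to 11 of 17 cells, Nrp2 from 19 of 21 to 7 of 17, and Cdh5 is above 1 TPM in every cell. Plek and others of these genes were named for their difference between the classes.

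The 6 myeloid genes past 2, of 32 compared and beside 0.242% of all genes, were Plek, Tyrobp, Plcg2, Ptpn6, Alox5 and Alox5ap. They were picked for a higher level in these same positive cells, so a rise with Sfpi1 was partly built in and is no support. Their number above 1 TPM was counted in each cell as a description. It had a median of 3 in the 21 cells at 0 of Sfpi1 (range 0 to 5), 3 in the 5 cells up to 1 TPM (range 3 to 4), 4 in the 7 cells up to 10 TPM (range 1 to 5) and 5 in the 17 cells above 10 TPM (range 3 to 6). The ranges overlapped, so this number did not tell the class of a single cell. Among cells above 10 TPM, 12 of 17 had Tyrobp, 17 of 17 had Plcg2, 14 of 17 had Ptpn6 and 15 of 17 had Alox5. The corresponding counts among the 21 cells at 0 were 8, 16, 11 and 12. Of the 7 low positive cells, 1 had Plek, 5 had Tyrobp, 6 had Plcg2, 4 each had Ptpn6 and Alox5, and 7 had Alox5ap. Alox5ap was above 1 TPM in 17 of the 17 high cells and in 16 of the 21 cells at 0. Pparg and Zbtb46, picked among the 15 lowest genes, showed the opposite course, which that choice partly built in too. Each was above 1 TPM in 5 of the 17 high cells and in 15 and 16 of the 21 cells at 0.

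Promoters were read as the 250 bases before to 50 bases after the start site given by RefSeq (GRCm38.p6). PU.1 binds purine-rich sites around the core GAGGAA, of which GAGGAAGT is a fuller form. On both strands together, GAGGAAGT was held by 3.69% of 27025 promoters, by none of the 14 promoters found among the 15 highest genes and by 1 of the 12 found among the 15 lowest. Of the 6887 promoters of compared genes, 3.57% held it. The RUNX-type motif TGTGGT was in 18.9% of all promoters, in 14.5% of those of compared genes and in 0 of 14 and 1 of 12 of the named ones. The GATA-type motif AGATAA was in 12.7% of all, in 7.22% of those of compared genes and in 1 of 14 and 2 of 12. The shorter GAGGAA, which lies within GAGGAAGT and was added after the values were seen, was in 31.3% of all promoters, in 30.1% of those of compared genes, in 6 of 14 (42.9%) of the higher genes and in 5 of 12 (41.7%) of the lower genes. The sequences before the start of 3 genes are shown, with GAGGAA or its reverse complement in capitals. They belong to the gene most like Sfpi1, to the leukotriene enzyme gene and to the one gene with GAGGAAGT among the promoters found for the 15 highest and 15 lowest genes. They cover chr11:17008719-17008968 (minus strand) for Plek, chr6:116461179-116461428 (minus strand) for Alox5 and chr2:69135550-69135799 (plus strand) for Nostrin.
Plek: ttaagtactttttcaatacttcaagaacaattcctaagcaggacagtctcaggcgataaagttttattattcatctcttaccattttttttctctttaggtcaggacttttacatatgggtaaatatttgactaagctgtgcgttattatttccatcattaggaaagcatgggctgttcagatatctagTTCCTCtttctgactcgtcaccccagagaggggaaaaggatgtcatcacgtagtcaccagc
Alox5: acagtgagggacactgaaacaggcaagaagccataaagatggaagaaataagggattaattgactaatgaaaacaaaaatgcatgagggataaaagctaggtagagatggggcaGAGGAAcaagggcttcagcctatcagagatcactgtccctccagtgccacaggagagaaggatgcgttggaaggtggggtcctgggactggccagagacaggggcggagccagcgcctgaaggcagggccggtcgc
Nostrin: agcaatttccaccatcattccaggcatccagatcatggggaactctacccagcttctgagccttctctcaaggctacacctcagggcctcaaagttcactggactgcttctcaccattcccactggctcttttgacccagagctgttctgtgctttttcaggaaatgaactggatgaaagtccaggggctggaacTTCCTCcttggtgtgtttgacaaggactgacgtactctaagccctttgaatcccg
The RefSeq start of Plek lies inside the span given for the gene above, whose annotation begins farther upstream. The capitals begin 61 bases before the RefSeq start of Plek, 136 bases before that of Alox5 and 55 bases before that of Nostrin. Plek and Alox5 were among the genes higher in positive cells and Nostrin among the lower ones. A match of letters is a description and no binding was measured here.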

How the data were processed

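The values were TPM per gene and cell, as deposited; the authors' processing notes name HISAT2 2.1.0, StringTie 1.3.4 and the build mm10. Copies made by amplification could not be separated, as the protocol named no molecular identifiers, and TPM keeps no read depth, so a value of 0 means only that a gene was listed at 0. The deposited rows of a cell summed to 942975 to 970894 TPM. How the rows were selected was not given in the sources used here, and no doublet caller was run.

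Cells were classed by Sfpi1 at 1 TPM. For each gene, log2(TPM + 1) was fitted by least squares on the class and the number of genes above 1 TPM (Python 3.11.15, numpy 2.4.6, scipy 1.17.1), a script tested on simulated data. Genes were compared when above 1 TPM in at least 10 cells. The named genes were the 15 highest and 15 lowest among those with the same sign of the unadjusted difference in each title set (Sfpi1 and ribosomal protein genes left out), the 10 most like Sfpi1, list members past 2, list extremes, sort markers and Runx1. Other names, such as Ptpn18, Klf4 and Fcer1g, were chosen after their values were seen. The members and lists were chosen with earlier results of these data known. All cells were 1 sample, so no test was made. Alternatives were other pseudocounts, covariates, Sfpi1 levels, filters, scalings and sets of cells. Gene coordinates came from GENCODE M21.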

Additional observations from a re-analysis of the deposited data

How the results depend on the processing

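No paired analysis was possible because the labels give a single group, and the title sets, whose meaning is unknown, do not pair single cells. Among the 10 summary results, the counts of genes past 2 changed widely with the settings. The higher and lower counts, 22 and 13 at the chosen settings, were 13 and 29 without the covariate, 175 and 158 with a pseudocount of 0.1, 34 and 23 with cells divided at 10 TPM of Sfpi1, and 62 and 37 with cells divided at 100 TPM. With 1 title set left out they ran from 33 to 51 and from 28 to 34, sets smaller by 11 to 14 cells. With the 7 low positive cells left out, an alternative chosen after seeing the data, they were 42 and 31. The median of the myeloid genes, 0.52, was 0.85 with the pseudocount of 0.1, 1.02 and 1.27 with the 10 and 100 TPM levels, 0.90 without the low positive cells, and 0.30 to 0.65 with 1 title set left out, the lowest being without the second. The difference in median genes per cell, -292, was 271, 248 and 191.5 under those changes of level and cells, and 118 over cells with at least 5000 genes. The median of the G2 and mitosis genes turned from 0.16 to -4.33 percentage points when shares of cells above 1 TPM were compared, and was -0.08 without the covariate and -0.19 without the second title set. The cause of these changes was not tested. With the title set added as a block, chosen after seeing the data, the counts were 24 and 11 and the myeloid median was 0.48. Medians of the myeloid, pan-leukocyte, blood factor and endothelial lists kept their sign under all 18 alternatives. Of 83 single genes followed through them, 21 changed sign under at least 1 alternative (Cd68, Cebpb, Csf2ra, Efnb2, Erg, Fcer1g, Fli1, Gata2, Gfi1, Hey1, Irf8, Kdr, Kit, Lyl1, Lyz2, Madd, Procr, Psmc3, Slc39a13, Tacc3 and Tal1), and none of those past 2 did. Depth is unknown, so a gene listed at 0 may be one that was not captured, and with 24 and 26 cells of 1 sample no error between cultures can be given.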
